A study of Homo sapiens with 36 samples.

Results

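A2780 cis SSP cells in medium free of serine and glycine received carboplatin, and 6 RNA-seq libraries of 36 in the series made up this comparison: 3 libraries of cis SSP -SG cells (libraries 31 to 33) and 3 of cis SSP -SG carbo cells (libraries 34 to 36). The libraries were taken by their labels alone, and no measured value was used to choose them. A2780 is a human ovarian cancer cell line, and A2780 cis is its derivative made resistant by long exposure to cisplatin. The cis SSP cells are A2780 cis cells that took up growth again after serine and glycine were withheld. The paper reports that they regained part of the sensitivity to platinum, in deprived and in complete medium. All 6 libraries therefore share the cisplatin-selected background and the deprived medium, a homemade RPMI with dialysed serum, and differ in carboplatin, whose dose the labels write as 6 M. The study's other assays use micromolar carboplatin, so the unit in the labels is in doubt and the dose was not settled here. The resistant cells and the cells grown out of them are each 1 derived line, and the study's legends speak of technical replicates, so the p-values below measure the spread between such libraries and not between separate cultures. The comparison asks how these cells, which came from resistant cells and grow without supplied serine, respond to platinum.

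Carboplatin forms crosslinks in DNA, and damaged DNA stabilises the transcription factor p53, which raises genes that stop the cell cycle (CDKN1A), repair lesions (DDB2, POLH) or feed back on p53 itself (MDM2). Serine is made from a glycolytic intermediate by PHGDH, PSAT1 and PSPH in turn, and amino acid shortage raises these enzymes, amino acid transporters and aminoacyl-tRNA synthetases through ATF4, the transcription factor of the integrated stress response. ATF4 pairs with C/EBP family proteins on composite DNA elements that hold the letters TGATGNAA, and p53 binds 2 half-sites that lie next to each other.

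The promoters of 4 called genes are shown because they carry these letters: FGF21, SLC1A5 and GARS1, lower with carboplatin, hold TGATGNAA on one strand or the other, and DDB2, higher with carboplatin, holds a pair of p53 half-sites. Each window is 300 bases long, from RefSeq on GRCh38.p14, 5′ to 3′ along the gene, with the matching bases in capitals: chr19:48755274-48755573 on the plus strand, chr19:46784765-46785064 on the minus strand, chr7:30594628-30594927 on the plus strand and chr11:47214724-47215023 on the plus strand.
FGF21: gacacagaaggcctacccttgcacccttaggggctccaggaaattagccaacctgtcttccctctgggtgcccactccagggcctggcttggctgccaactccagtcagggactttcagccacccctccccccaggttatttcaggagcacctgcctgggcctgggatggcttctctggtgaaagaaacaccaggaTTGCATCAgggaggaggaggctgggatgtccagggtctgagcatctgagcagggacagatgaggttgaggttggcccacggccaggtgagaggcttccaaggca
SLC1A5: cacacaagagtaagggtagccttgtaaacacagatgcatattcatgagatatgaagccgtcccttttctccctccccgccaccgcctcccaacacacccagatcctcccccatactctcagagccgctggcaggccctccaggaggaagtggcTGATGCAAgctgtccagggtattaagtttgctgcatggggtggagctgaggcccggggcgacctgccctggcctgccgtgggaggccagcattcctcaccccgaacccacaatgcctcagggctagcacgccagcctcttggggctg
GARS1: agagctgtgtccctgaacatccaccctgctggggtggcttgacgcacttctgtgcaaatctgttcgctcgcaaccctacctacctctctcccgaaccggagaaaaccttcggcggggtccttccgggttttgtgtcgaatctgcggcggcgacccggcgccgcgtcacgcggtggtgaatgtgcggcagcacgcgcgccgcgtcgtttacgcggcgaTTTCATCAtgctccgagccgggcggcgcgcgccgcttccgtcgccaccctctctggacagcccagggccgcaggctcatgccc
DDB2: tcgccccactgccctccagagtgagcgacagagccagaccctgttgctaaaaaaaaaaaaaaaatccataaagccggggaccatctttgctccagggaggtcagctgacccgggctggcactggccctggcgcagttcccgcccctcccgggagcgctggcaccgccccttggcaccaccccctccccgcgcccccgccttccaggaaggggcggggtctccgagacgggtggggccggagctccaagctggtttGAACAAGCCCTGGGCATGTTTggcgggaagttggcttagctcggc
SLC1A5 has 3 such windows, 1 for each annotated start, GARS1 and DDB2 have 2 each, and FGF21 has 1. The window shown is the only 1 of its gene with the match, and distances refer to its start alone. The match ended 46 bases before the start of transcription in FGF21, 89 before it in SLC1A5 and 25 before it in GARS1, and in DDB2 the pair lay just after the start. TGATGNAA, searched on both strands, was in 1270 of all 35116 promoter windows (3.62%), in 6 of 33 windows of the genes listed as ATF4 and integrated stress response genes (18.2%), in 6 of 22 of amino acid transporters (27.3%), in 7 of 21 of cytosolic aminoacyl-tRNA synthetases (33.3%), in 1 of 43 of p53 targets (2.33%) and in none of the 2 available for serine synthesis enzymes. The p53 pair, searched as 2 half-sites with up to 13 bases between them, was in 10 of all windows (0.0285%), DDB2 among them. These matches describe letters in a window and not occupied sites.

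Levels are given as CPM, the reads of a gene per library total after TMM scaling of all 36 libraries, so they compare 1 gene between libraries and not genes of different length. Library 32 of the untreated group stood apart from its mates. Against the mean of libraries 31 and 33, genes whose longest transcript is under 1 kb were higher in it by a median of 0.66 log2 units and genes of 8 kb or more were lower by a median of 0.83, while the medians of the other 5 libraries stayed close to 0. Its counts differed from those of libraries 31 and 33 by a mean chi-square of 123 and 110 per gene, against 1.79 to 5.39 for the other pairs of one group. The common dispersion was 0.0362 with library 32 and 0.000892 without it. The comparison of the 6 libraries is therefore given with and without library 32. Totals on genes ranged from 14644029 to 20062084 reads per library. The share of reads on mitochondrially encoded genes was 3.82 to 5.46% without carboplatin and 6.59 to 8.41% with it.

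**Figure D1:**
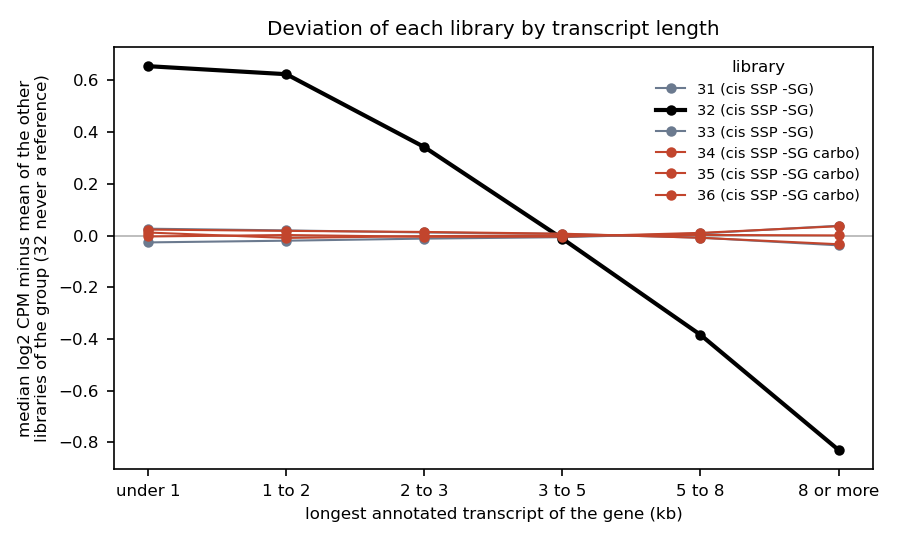
Median deviation of each of the 6 libraries (y axis, log2 CPM minus the mean of the other libraries of its group, library 32 never being a reference) over 6 classes of transcript length (x axis, kb). Library 32 falls from 0.66 to -0.83, and the other 5 libraries lie along 0.

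The 6 libraries expressed almost none of the markers of ovarian and Müllerian lineage: 9 of 10, PAX8 and MUC16 among them, were at or under 0.3 CPM, and WT1 lay between 0.28 and 0.81 CPM. Of the leukocyte markers, PTPRC and CD3E were at 0 reads in each library, and CD14 and LYZ were under 0.2 CPM. Among fibroblast markers COL1A1 was at 8.2, 9.12 and 10.6 CPM without carboplatin and at 13.9, 11.97 and 12.4 CPM with it, while PDGFRB was at 2.38, 1.40 and 3.49 CPM against 0.536, 0.910 and 1.44 CPM and DCN overlapped between the groups. None of 5 fibroblast markers was called with the 6 libraries, and 2 were called higher and 1, PDGFRB, lower without library 32. TEK, an endothelial receptor, lay between 10.2 and 11.5 CPM in all 6. It was the only 1 of 5 endothelial markers tested. The list together summed to 10.23 to 11.79 CPM per library, so the other endothelial markers were almost absent.

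With carboplatin, p53 targets such as CDKN1A rose and genes of the ATF4 programme such as INHBE fell in these cells. With the 6 libraries 159 of 13541 genes (1.17%) were called higher and 40 (0.295%) lower at an adjusted p under 0.05 in the quasi-likelihood F test of edgeR (adjustment by Benjamini and Hochberg), and 2092 genes had an unadjusted p under 0.05. Without library 32 the calls were 2925 of 13833 genes higher (21.1%) and 2754 lower (19.9%), of which 287 and 80 moved by 1 log2 unit or more. All 199 genes called with the 6 libraries were called in the same direction without library 32. With library 32 kept and another library left out, edgeR called 3 genes without library 31, 4 without library 33 and none without library 34, 35 or 36, where 1218, 1213 and 1353 genes had an unadjusted p under 0.05. In bulk RNA, a change in how many cells express a gene and a change in RNA per cell cannot be told apart. The median log2 fold change of all genes tested was -0.02 with the 6 libraries and 0.01 without library 32.

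**Figure D2:**
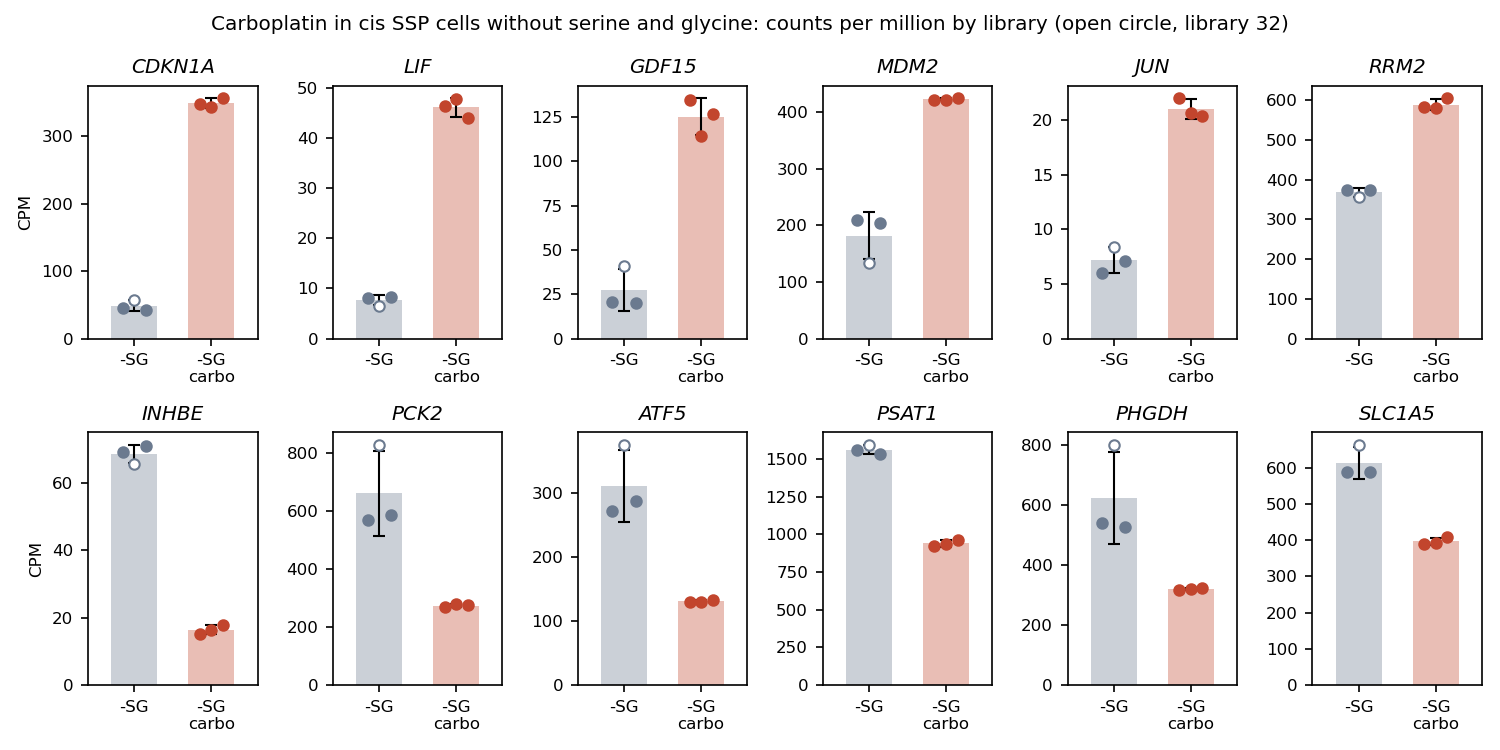
CPM of 12 genes in the 3 cis SSP -SG libraries (grey) and the 3 cis SSP -SG carbo libraries (red). Bars start at 0 and give the mean, error bars the SD (n = 3 libraries), points the libraries, with library 32 as an open circle. In each of the 12 genes the groups do not overlap, with CDKN1A at 42.8 to 57.8 against 343 to 357 CPM and INHBE at 65.5 to 70.9 against 15.2 to 17.7 CPM. Several of the 12 were named by a rule that required this. Of 13833 genes tested without library 32, the groups of 3 libraries did not overlap for 1945 that were higher and 2259 that were lower.

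CDKN1A (chr6:36644237-36655114, GRCh37), which encodes the cell cycle inhibitor p21, was at 44.95, 57.8 and 42.8 CPM without carboplatin and at 348, 343 and 357 CPM with it. Its log2 fold change was 2.87 ± 0.14 (SE, adjusted p = 0.00299 by edgeR) with the 6 libraries and 3.02 ± 0.038 without library 32. MDM2, the ubiquitin ligase that degrades p53, was at 209, 134 and 203 CPM and rose to 422, 421 and 425 CPM, with library 32 the lowest of the untreated libraries. Its log2 fold change was 1.23 (adjusted p = 0.0403 by edgeR) and 1.06 without library 32.

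Secreted factors were among the p53 targets that rose most. LIF, a cytokine of the interleukin-6 family, was at 8.10, 6.55 and 8.37 CPM and rose to 46.3, 47.7 and 44.01 CPM, a log2 fold change of 2.60 (2.50 without library 32). GDF15, a stress cytokine of the TGF-beta superfamily that ATF4 can also raise, was at 20.5, 41.2 and 20.2 CPM without carboplatin and at 135, 114 and 127 CPM with it. Library 32 was the highest untreated library for GDF15, and the log2 fold change was 2.22 with it and 2.64 without it. CYFIP2, which has a part in actin regulation, went from 29.9, 20.2 and 28.98 CPM to 96.7, 97.5 and 106 CPM.

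Of 40 genes listed as p53 targets, 36 were tested: 17 were called higher and none lower with the 6 libraries, 34 were called higher and 1 lower without library 32. The median log2 fold change of the list was 1.06 and 1.04, against -0.02 and 0.01 for all genes tested. DDB2, which recognises lesions for nucleotide excision repair, was at 64.7, 86.3 and 64.9 CPM and at 134, 137 and 127 CPM with carboplatin (log2 fold change 0.90, adjusted p = 0.0438 by edgeR, and 1.06 without library 32). It was the 1 call among 18 nucleotide excision repair genes with the 6 libraries, and 4 were called higher and 3 lower without library 32, near the share of all genes. POLH, the polymerase that copies past platinum crosslinks, was at 34.7, 20.7 and 32.97 CPM against 58.3, 67.6 and 64.6 CPM, with a log2 fold change of 1.12 that missed the threshold with the 6 libraries (adjusted p = 0.071 by edgeR) and of 0.93 without library 32 (adjusted p = 3.42e-10). Other members passed the test only without library 32, which lay above its mates for them: BAX, the pore-forming apoptosis effector, was at 79.3, 153 and 88.3 CPM against 161, 160 and 161 CPM, and RPS27L at 67.6, 108 and 62.2 CPM against 133, 128 and 130 CPM. KITLG, named after its values were seen as the 1 member called lower without library 32, had a log2 fold change of -0.20 there and of -0.04 with the 6 libraries.

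The serine synthesis enzymes were lower with carboplatin, 1 of 3 past the threshold with the 6 libraries and all 3 without library 32. PHGDH (chr1:120191034-120286841), which commits 3-phosphoglycerate to serine, was at 540, 801 and 528 CPM without carboplatin and at 316, 319 and 323 CPM with it. The groups did not overlap, and library 32 was far above its mates. Its log2 fold change was -0.95 ± 0.18 (adjusted p = 0.0759 by edgeR) with the 6 libraries and -0.72 ± 0.026 (adjusted p = 2.63e-14) without library 32. PSAT1 (chr9:80912041-80945009), the aminotransferase of the pathway, was at 1558, 1596 and 1532 CPM and fell to 920, 936 and 963 CPM, with log2 fold changes of -0.72 (adjusted p = 0.0225 by edgeR) and -0.69. PSPH, the phosphatase that releases serine, was at 125, 153 and 125 CPM against 95.9, 95.4 and 100 CPM, with log2 fold changes of -0.45 (adjusted p = 0.127 by edgeR) and -0.34 (adjusted p = 2.92e-07).

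Across the 12 conditions the treated cells still held PSAT1 above most others. Its mean in cis SSP -SG carbo cells, 940 ± 21.8 CPM (SD, n = 3), stood below that of cis SSP -SG cells, 1562 ± 32.4 CPM, and above that of cis SSP cells in complete medium with carboplatin, 564 ± 17.6 CPM, and of cis -SG carbo cells, 656 ± 19.2 CPM. PHGDH in cis SSP -SG carbo cells, 320 ± 3.53 CPM, exceeded the 166 ± 4.73 CPM of cis -SG carbo cells and the 164 ± 10.4 CPM of wt -SG carbo cells. These levels are set side by side without a test.

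Several amino acid transporters fell as well. SLC1A5, which carries glutamine and serine, was at 588, 664 and 590 CPM and fell to 390, 391 and 409 CPM (log2 fold change -0.61, adjusted p = 0.0448 by edgeR, and -0.55 without library 32). SLC1A4, which carries serine and alanine, was at 155, 125 and 148 CPM against 88.8, 90.9 and 95.8 CPM, with log2 fold changes of -0.62 (adjusted p = 0.0671 by edgeR) and -0.70 (adjusted p = 1.49e-11). SLC43A1, a carrier of large neutral amino acids, was at 89.2, 117 and 91.6 CPM and fell to 56.1, 55.7 and 57.4 CPM. Of 13 transporters tested, 2 were called lower and none higher with the 6 libraries, and 10 lower and 3 higher without library 32 (all genes tested, 19.9% lower and 21.1% higher). SLC7A11, the cystine carrier, was at 122, 58.1 and 114 CPM against 55.5, 54.9 and 54.2 CPM, library 32 lying just above the treated libraries, and its log2 fold change was -0.82 (adjusted p = 0.243 by edgeR) and -1.09 (adjusted p = 1.1e-13).

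Further genes of the integrated stress response fell, several by larger fold changes than the enzymes. INHBE (chr12:57846106-57853063), the beta E subunit of activin, was at 69.1, 65.5 and 70.9 CPM and fell to 15.2, 16.4 and 17.7 CPM, a log2 fold change of -2.04 ± 0.10 (adjusted p = 0.00299 by edgeR) and -2.06 without library 32. FGF21, a hormone of the fasting response, was low throughout, at 3.29, 3.83 and 2.72 CPM, and fell to 0.402, 0.35 and 0.439 CPM (log2 fold change -2.99, adjusted p = 0.0104 by edgeR, and -2.87 without library 32). For both genes library 32 lay close to its mates. PCK2, the mitochondrial PEP carboxykinase, was at 569, 831 and 586 CPM and fell to 269, 278 and 275 CPM, and ATF5, a transcription factor, was at 271, 375 and 286 CPM and fell to 129, 129 and 133 CPM. TRIB3, a pseudokinase that dampens ATF4, went from 186, 261 and 188 CPM to 93.9, 96.3 and 94.8 CPM. The log2 fold changes of these 3 genes were -1.25, -1.24 and -1.14 with the 6 libraries and -1.05, -1.07 and -0.95 without library 32.

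ATF4 mRNA was at 375, 601 and 372 CPM without carboplatin and at 282, 286 and 290 CPM with it. Its log2 fold change was -0.63 (adjusted p = 0.219 by edgeR) with the 6 libraries and -0.36 (adjusted p = 1.69e-09) without library 32. Of 25 listed genes of the ATF4 and integrated stress response programme 8 were called lower with the 6 libraries and 21 without library 32, and none was called higher in either fit. The median log2 fold change of the list was -0.81 and -0.55. Among 20 cytosolic aminoacyl-tRNA synthetases, which charge tRNAs with amino acids, 1 was called lower with the 6 libraries, GARS1, and 14 lower and 2 higher without library 32. The shares of all genes tested without library 32 were 19.9% lower and 21.1% higher. GARS1 fell from 734, 861 and 718 CPM to 453, 454 and 479 CPM, and MARS1 was at 540, 544 and 523 CPM against 363, 368 and 378 CPM (adjusted p = 0.0526 by edgeR with the 6 libraries, 9.38e-12 without library 32).

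Enzymes of one-carbon metabolism went both ways. GLDC, the decarboxylase of the glycine cleavage system, was at 46.9, 44 and 49.2 CPM and rose to 84.2, 84.4 and 87.1 CPM (log2 fold change 0.88, adjusted p = 0.0162 by edgeR, and 0.85 without library 32). ALDH1L2, a mitochondrial folate enzyme, was at 262, 91.4 and 255 CPM against 130, 136 and 137 CPM, and the groups overlapped through library 32 alone. Its log2 fold change was -0.58 (adjusted p = 0.518 by edgeR) with the 6 libraries and -0.92 (adjusted p = 1.61e-14) without library 32. Of 17 enzymes tested, 1 was called higher and none lower with the 6 libraries, and 4 higher and 6 lower without library 32. All genes tested went both ways too, with 21.1% called higher and 19.9% lower without library 32.

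**Figure D3:**
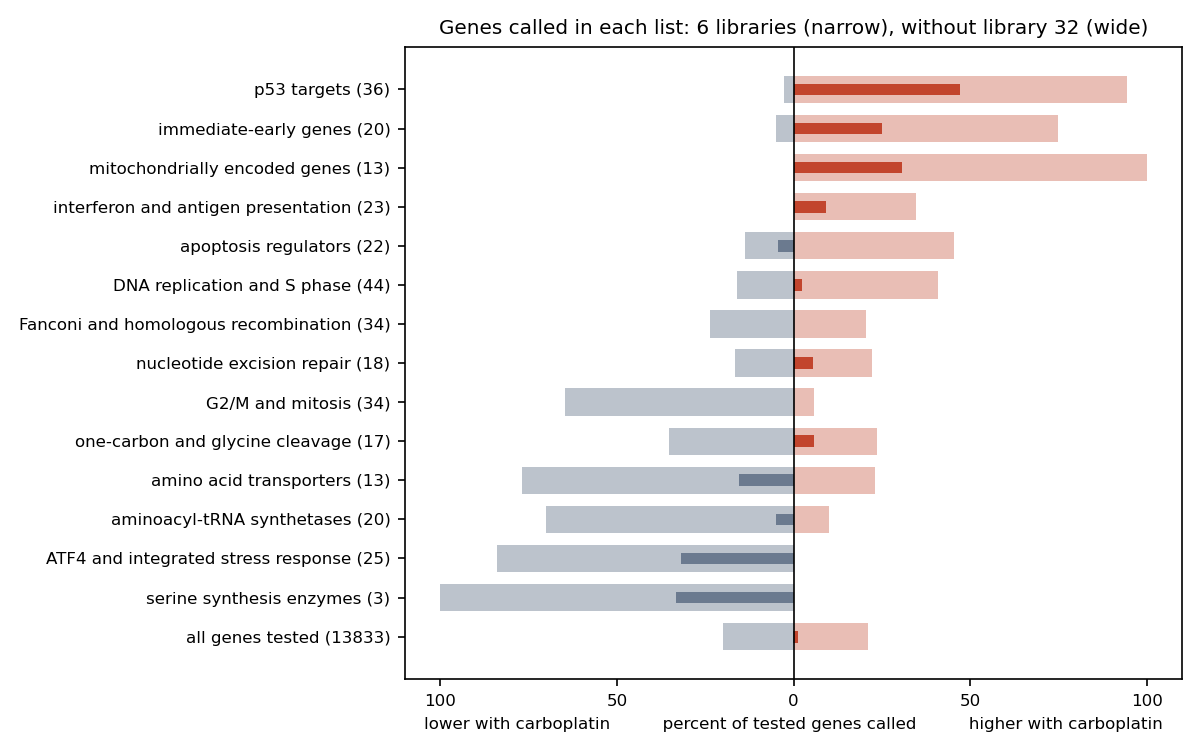
Percent of tested genes called higher (to the right) or lower (to the left) with carboplatin in 14 gene lists and among all genes tested; narrow bars are the 6 libraries, wide bars the fit without library 32, and the number of genes tested in the latter stands behind each name. The p53 list reaches 17 of 36 higher with the 6 libraries, and the ATF4 list 8 of 25 lower.

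Of 34 genes of G2/M and mitosis, none was called with the 6 libraries, and 22 were called lower and 2 higher without library 32, where the median log2 fold change was -0.14. In that fit 19.9% of all genes tested were called lower and 21.1% higher. KIF20A, a mitotic kinesin, was at 160, 113 and 153 CPM against 105.4, 108 and 103 CPM, with a log2 fold change of -0.41 (adjusted p = 0.284 by edgeR) and -0.54 (adjusted p = 3.94e-10). ASPM, a spindle pole protein of a long transcript, was at 705, 257 and 665 CPM without carboplatin and at 460, 470 and 489 CPM with it, so that the treated libraries lay between library 32 and its mates. Of 44 genes of DNA replication and S phase, 1 was called higher with the 6 libraries, near the 1.17% of all genes, and 18 higher and 7 lower without library 32 (all genes tested, 21.1% and 19.9%). The one was RRM2, the small subunit of ribonucleotide reductase, at 374, 356 and 375 CPM and then 582, 580 and 605 CPM (log2 fold change 0.69, adjusted p = 0.024 by edgeR, and 0.68 without library 32). PCNA, the sliding clamp, was at 250, 411 and 251 CPM against 384, 380 and 395 CPM and was called higher without library 32 at a log2 fold change of 0.65.

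Some immediate-early genes, transcription factors that answer growth and stress signals first, rose. JUN was at 6.02, 8.39 and 7.09 CPM and rose to 22.1, 20.7 and 20.4 CPM (log2 fold change 1.58, adjusted p = 0.0137 by edgeR, and 1.71 without library 32). FOSL1, a partner of JUN in the AP-1 factor, went from 28.3, 29.95 and 27.6 CPM to 67.6, 72.2 and 69.2 CPM. FOSB and EGR2 rose by log2 fold changes of 0.96 and 0.89 (0.89 and 0.86 without library 32). Of 20 such genes tested, 5 were called higher and none lower with the 6 libraries, and 15 higher and 1 lower without library 32. Among all genes tested, 21.1% were called higher and 19.9% lower without library 32.

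Mitochondrially encoded transcripts were higher with carboplatin. All 13 protein-coding genes of the mitochondrial genome had positive log2 fold changes, 4 were called higher with the 6 libraries and 13 without library 32, and the list median was 0.76 and 0.95. MT-ND4, a subunit of complex I, was at 6834, 7966 and 8406 CPM and rose to 17260, 16200 and 12900 CPM (log2 fold change 1.02, adjusted p = 0.0438 by edgeR, and 1.04 without library 32). MT-ATP8 went from 289, 295 and 338 CPM to 713, 672 and 590 CPM. Of 75 nuclear genes of the respiratory chain none was called with the 6 libraries, and 9 were called higher and 17 lower without library 32 (all genes tested, 21.1% and 19.9%). The 13 genes are transcribed together from the mitochondrial genome and are no independent observations, and the part that mRNA selection in each library has in their share was not tested.

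Genes of immune recognition were low and rose in part. CD274, which encodes the checkpoint ligand PD-L1, was at 1.06, 1.99 and 1.66 CPM and rose to 6.50, 8.12 and 7.08 CPM (log2 fold change 2.24, adjusted p = 0.0162 by edgeR, and 2.44 without library 32). TAP1, a subunit of the peptide transporter of antigen presentation, went from 2.58, 2.58 and 3.71 CPM to 6.17, 6.30 and 6.65 CPM. Among 22 interferon-stimulated and antigen presentation genes tested with the 6 libraries these 2 were called higher and none lower. Without library 32, 8 of 23 were called higher and none lower, against 21.1% and 19.9% of all genes tested. HMOX1, heme oxygenase 1, was at 59.8, 83.8 and 60.5 CPM and rose to 150, 150 and 155 CPM (log2 fold change 1.17, and 1.36 without library 32), the only call among 19 NRF2 and glutathione genes with the 6 libraries. Without library 32, 6 of these 19 were called higher and 3 lower. HRK, a BH3-only activator of apoptosis, fell from 10.6, 8.09 and 7.92 CPM to 3.89, 4.34 and 3.07 CPM (log2 fold change -1.23, and -1.29 without library 32), the only call among 22 apoptosis regulators with the 6 libraries. Without library 32, 10 of these 22 were called higher, BAX among them, and 3 lower, with a median log2 fold change of 0.15. The shares of all genes tested were 21.1% higher and 19.9% lower.

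Genes of platinum handling and repair otherwise showed no call with the 6 libraries. MT2A, a metallothionein, was at 17.9, 44 and 17.8 CPM against 45.9, 46.2 and 46.1 CPM, and had a log2 fold change of 0.82 (adjusted p = 0.358 by edgeR) with the 6 libraries and of 1.39 (adjusted p = 6.58e-13) without library 32. SLC31A1, a copper importer that can carry platinum drugs, was at 143, 98.9 and 139 CPM against 101, 99.5 and 104.6 CPM. ERCC1, an endonuclease subunit of excision repair, was at 85.4, 146 and 90.3 CPM against 123, 123.4 and 131 CPM. In SLC31A1 and ERCC1 the groups overlapped through library 32, and in MT2A library 32 lay just below the treated libraries. PARP1, which marks DNA breaks with poly(ADP-ribose), was at 623, 603 and 621 CPM against 547, 559 and 568 CPM, with a log2 fold change of -0.13 (adjusted p = 0.539 by edgeR) and of -0.13 (adjusted p = 0.000223) without library 32. None of 34 Fanconi anemia and homologous recombination genes was called with the 6 libraries, and 7 were called higher and 8 lower without library 32, shares close to those of all genes tested (21.1% and 19.9%).

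By the rule for the largest changes the other genes named are these. INKA2, an inhibitor of the kinase PAK4, went from 3.24, 2.94 and 3.66 CPM to 14.6, 13.5 and 14.5 CPM. DRAXIN, an axon guidance protein, SULF2, a heparan sulfate sulfatase, DNAI3, a dynein intermediate chain, and ACHE, acetylcholinesterase, had log2 fold changes of 2.07, 2.05, 2.01 and 1.94 with the 6 libraries and of 1.91, 1.89, 1.87 and 2.12 without library 32. Of the genes that fell, DHRS2, a short-chain dehydrogenase, went from 73.2, 95.5 and 73.7 CPM to 31.4, 33.4 and 28.8 CPM, ALDH2, an aldehyde dehydrogenase, from 49.0, 75.3 and 50.3 CPM to 24.6, 24.8 and 23.8 CPM, and ALDH3B1 had a log2 fold change of -1.27 (-1.10 without library 32). LSAMP, a cell adhesion protein, and KLF15, a transcription factor of fasting metabolism, fell by 1.44 and 0.997 on the log2 scale, and by 1.62 and 0.971 without library 32.

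**Figure D4:**
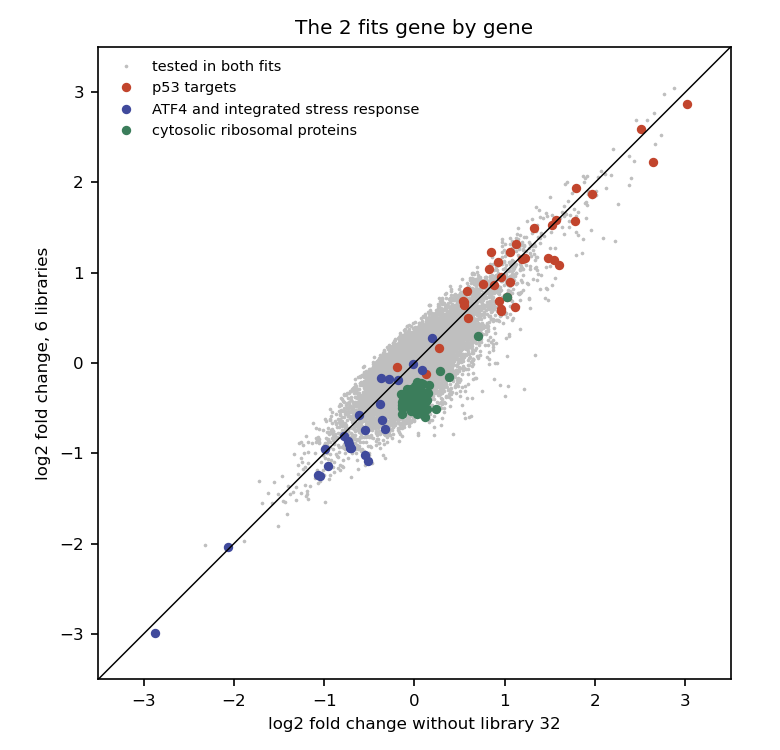
Log2 fold change of each of 13541 genes (points; 2 lie outside the axes) without library 32 (x axis) and with the 6 libraries (y axis), with the diagonal as a line. The p53 list has a median of 1.04 on the x axis and 1.06 on the y axis, close to the diagonal. The ATF4 list, with medians of -0.55 and -0.81, lies below it. The ribosomal protein genes, which are short, also lie below it, with a median of 0.01 on the x axis and -0.41 on the y axis.

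The same cells were also treated in complete medium, and the interaction of medium and drug tests whether the response differed. With all 12 libraries 4 of 14231 genes (0.0281%) had a different response, each of them lower in the deprived medium, and 710 an unadjusted p under 0.05. They were INHBE, STC2, NPR2 and SESN2. STC2, NPR2 and SESN2 were named after their values were seen, since they complete this count. With library 32 left out the common dispersion of this fit was 0.0193, and with library 25, an untreated cis SSP library in complete medium, left out too it was 0.00086. Without libraries 25 and 32 the response was higher in deprived cells for 826 of 14442 genes (5.72%) and lower for 1341 (9.29%).

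From here on, responses of cis SSP -SG cells are those without library 32. The ATF4 list differed between the media. Without libraries 25 and 32, 22 of its 25 genes had a lower response in deprived cells and none a higher one (3 lower with all 12 libraries), with a median difference of -0.63 log2 units (all genes tested, -0.0016). For INHBE the log2 fold change was -2.06 in deprived cells and -0.24 ± 0.092 in complete medium, and the difference was -1.83 ± 0.11 (adjusted p = 3.34e-13 by edgeR, 0.00172 with all 12 libraries). TRIB3 fell by 0.95 on the log2 scale in deprived cells and was at 0.06 ± 0.043 in complete medium (difference -1.02, adjusted p = 5.91e-15 by edgeR, 0.125 with all 12 libraries). Both genes started higher in deprived cells (means of 3 libraries, libraries 25 and 32 included). INHBE was at 68.5 CPM in deprived and 14.58 CPM in complete medium without carboplatin, and at 16.45 and 11.6 CPM with it. TRIB3 was at 211.7 and 68.85 CPM without carboplatin, and at 95.01 and 65.64 CPM with it. SESN2, a stress-inducible leucine sensor under both p53 and ATF4, had a log2 fold change of -0.18 in deprived cells and of 0.60 ± 0.040 in complete medium, a difference of -0.78. STC2, a glycoprotein hormone, was at -0.78 and 0.16, and NPR2, the receptor of C-type natriuretic peptide, rose in both media, by 1.16 and 2.16.

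Serine synthesis genes followed with smaller differences. The response of PSAT1 was -0.69 in deprived cells and -0.19 in complete medium (difference -0.51 ± 0.034), that of PSPH -0.34 and 0.13 (difference -0.48 ± 0.053), and that of PHGDH -0.72 and -0.55 (difference -0.18 ± 0.037, adjusted p = 0.00125 by edgeR). All 3 were called lower in deprived cells without libraries 25 and 32 and none with all 12 libraries. Of 13 transporters 10, and of 20 aminoacyl-tRNA synthetases 13, had a lower response in deprived cells and none a higher one, while with all 12 libraries none of either list was called. GARS1 was at -0.63 in deprived cells and at 0.07 in complete medium. Of the p53 targets, 12 of 37 had a higher response in deprived cells and 1 a lower one (none of 36 with all 12 libraries), with a median difference of 0.15, and CDKN1A was at 3.02 and 2.78 (difference 0.23 ± 0.051, adjusted p = 0.00183 by edgeR, 1 with all 12 libraries). For LIF the difference was 0.18 ± 0.12 and for MDM2 0.09 ± 0.037, and neither passed the test (adjusted p = 0.375 and 0.0987 by edgeR). For the 13 mitochondrially encoded genes the median difference was 0.12, and none was called.

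**Figure D5:**
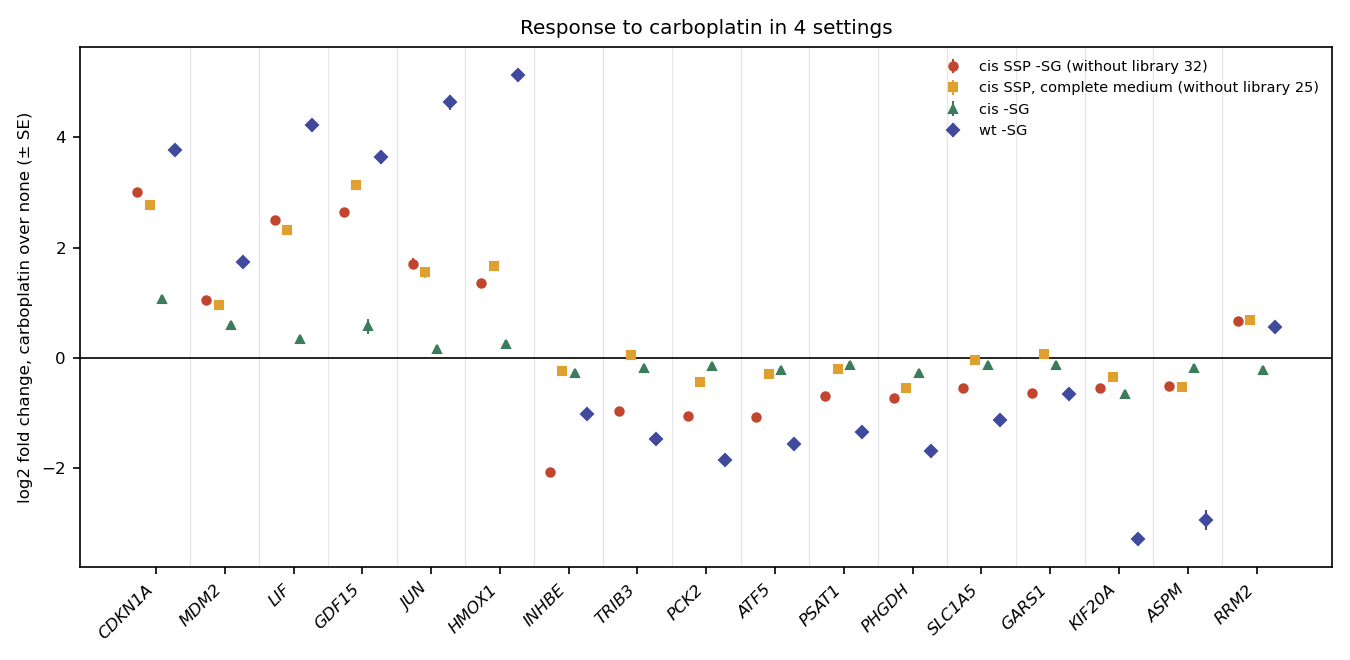
Log2 fold change with carboplatin (y axis, ± SE from edgeR) of 17 genes in cis SSP -SG cells without library 32, cis SSP cells in complete medium without library 25, cis -SG cells and wt -SG cells. CDKN1A is at 3.02, 2.78, 1.07 and 3.77 in this order, and TRIB3 at -0.95, 0.06, -0.19 and -1.47.

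Against cis cells kept in the same medium, resistant cells without the outgrowth that gave cis SSP cells, the p53 targets responded more in cis SSP cells. According to the paper, cis cells stopped growing when serine and glycine were withheld, until adapted cells grew out. KIF20A without carboplatin was at a mean of 29.95 CPM in cis cells and of 141.9 CPM in cis SSP cells. Line and growth state cannot be told apart in this comparison. With all 12 libraries 393 of 14870 genes (2.64%) responded differently, 315 higher and 78 lower in cis SSP cells, a split of 206 and 119 when libraries were scaled by total counts. Without library 32 the counts were 2236 of 15410 higher (14.5%) and 2353 lower (15.3%). Of 38 p53 targets tested 33 had a higher response in cis SSP cells and none a lower one, with a median difference of 0.64, and with all 12 libraries 13 of 37 were higher. CDKN1A had a log2 fold change of 3.02 in cis SSP cells and of 1.07 ± 0.042 in cis cells (difference 1.92 ± 0.065, adjusted p = 1.67e-15 by edgeR, 0.00019 with all 12 libraries), and LIF of 2.50 and 0.35 (difference 2.13 ± 0.095). BAX was at 0.96 in cis SSP cells and at 0.03 ± 0.040 in cis cells, and JUN at 1.71 and 0.16. The levels of 3 of these 4 genes already differed without carboplatin (means of 3 libraries, library 32 included). CDKN1A went from 148.8 to 310.9 CPM in cis cells and from 48.5 to 349.4 CPM in cis SSP cells. LIF went from 46.43 to 58.84 against 7.672 to 46.03 CPM, and JUN from 41.97 to 46.39 against 7.168 to 21.05 CPM. BAX went from 104 to 105.4 against 107 to 160.5 CPM. These levels were not tested.

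In the same comparison the ATF4 list differed in the other direction. Its response was lower in cis SSP cells for 20 of 25 genes and higher for 2, with a median difference of -0.57, and the serine synthesis enzymes were lower for 3 of 3. With all 12 libraries 10 of the ATF4 list and 1 of the serine synthesis enzymes were lower and none was higher. PSAT1 was at -0.69 in cis SSP cells and at -0.13 in cis cells (difference -0.59 ± 0.044, adjusted p = 4.14e-10 by edgeR, 0.00972 with all 12 libraries). SLC7A11 fell in cis SSP cells, by 1.09 on the log2 scale, and was at 0.29 ± 0.049 in cis cells. Mitochondrially encoded genes were higher in their response for 13 of 13 (9 with all 12 libraries), with a median difference of 1.48: MT-ND4 was at 1.04 in cis SSP cells and at -0.51 ± 0.19 in cis cells. RRM2 was at 0.68 and -0.22, and 28 of 44 replication genes had a higher response in cis SSP cells and none a lower one, against 5 higher with all 12 libraries. With libraries 23 and 24 of cis -SG carbo cells left out as well, a choice made after the data were seen, the p53 counts were 32 higher and none lower of 37, those of the ATF4 list 21 lower and none higher of 25, and those of the replication genes 22 higher and 1 lower of 44.

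Against the sensitive wt cells in the same medium, mitosis genes fell less in cis SSP cells. With all 12 libraries 4772 of 15245 genes (31.3%) responded differently, and without library 32 the response was higher in cis SSP cells for 3883 of 15689 (24.7%) and lower for 3353 (21.4%). Of 34 mitosis genes, 33 had a higher response in cis SSP cells and 1 a lower one, with a median difference of 1.83 (32 higher and none lower with all 12 libraries). KIF20A fell by 0.54 on the log2 scale in cis SSP cells and by 3.28 in wt cells (difference 2.76 ± 0.092, adjusted p = 9.21e-12 by edgeR, 1.69e-06 with all 12 libraries). ASPM was at -0.51 in cis SSP cells and at -2.94 in wt cells. Replication genes had a higher response in cis SSP cells for 37 of 44 and a lower one for 3 (31 and 1 with all 12 libraries).

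The p53 targets were mixed in the comparison with wt cells: 9 of 38 had a higher and 17 a lower response in cis SSP cells, with a median difference of -0.20. With all 12 libraries 6 were higher and 12 lower, with a median difference of -0.33. Of all genes tested 24.7% had a higher and 21.4% a lower response. CDKN1A was at 3.02 in cis SSP cells and at 3.77 ± 0.059 in wt cells (difference -0.73 ± 0.069), and its level with carboplatin was 349 ± 7.04 CPM against 1797 ± 107 CPM (SD, n = 3). DDB2 went the other way, at 1.06 and -0.03 ± 0.068. Immediate-early genes had a lower response in cis SSP cells for 16 of 21 and a higher one for none (14 and none with all 12 libraries). JUN was at 1.71 and 4.63 (difference -2.90 ± 0.20). Its level started near the floor in wt cells, where it went from 0.533 to 13.3 CPM, against 7.168 to 21.05 CPM in cis SSP cells. These JUN levels are means of 3 libraries, library 32 included, and were not tested. HMOX1 was at 1.36 and 5.13 ± 0.080, a difference of -3.75. The ATF4 list had a higher response in cis SSP cells for 13 of 25 genes and a lower one for 7, with a median difference of 0.47. With all 12 libraries the counts were close to even, 9 higher and 7 lower, with a median difference of 0.17. The serine synthesis enzymes had a higher response for 3 of 3 in both fits. PHGDH fell by 0.72 on the log2 scale in cis SSP cells and by 1.69 ± 0.058 in wt cells. INHBE, by contrast, fell more in cis SSP cells, by 2.06 against 1.02 (difference -1.03 ± 0.084). The 3 comparisons share the 6 libraries of cis SSP -SG cells with and without carboplatin, so their values are only set side by side.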

How the data were processed

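RNA-seq counts of 36 libraries, 3 for each of 12 conditions, were used as deposited. According to the study's methods, the authors aligned single reads to GRCh37.p13 with STAR and counted them on GENCODE v19 exons by HTSeq; the strand setting is not given in the sources used here. The deposited counts cover 57820 gene identifiers, 55538 with a symbol from the GRCh37 annotation, and 3 further entries that name no gene were left out. The entry among them for reads on no feature held 4.21 to 6.56% in the 6 libraries, as a share of these reads and those on genes together. Groups came from the labels.

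Libraries 31 to 33 and 34 to 36 were compared with edgeR 4.0.16 in R 4.3.3 (TMM scaling, filterByExpr, robust quasi-likelihood F test, Benjamini-Hochberg adjustment over all genes tested, threshold 0.05); SE is the log2 fold change divided by the square root of F. The fit was repeated without library 32. Differences in response were tested as interaction terms over 12 libraries. DESeq2 1.42.0, other scalings, filters and left-out libraries were alternatives. The scripts were tested on simulated data. Totals limit precision: the libraries held 13074937 to 20441582 reads on genes, and p-values cover the spread between libraries.

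Genes named were 10 of the serine and damage pathways (among them PHGDH, PSAT1, PSPH, SLC1A4, SLC1A5, ATF4, CDKN1A, MDM2 and PARP1; the remaining gene is not reported here), up to 4 members of each of 42 lists called in the same direction with and without library 32 (else those of smallest p without it, up to 2 in all), and up to 10 protein-coding genes in each direction with the largest change called in both fits, groups that did not overlap and 50 or more counts on average. KITLG, STC2, NPR2, SESN2, DCN and the lineage and leukocyte markers stand outside this rule and were named after their values were seen. The comparison, lists and genes were chosen with earlier results of these data known. UHRF1, ACACA and PECAM1 were listed but matched no symbol.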

Additional observations from a re-analysis of the deposited data

Results flagged for a closer look

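Responses to carboplatin differed between cis SSP -SG cells and other cells by the interaction term of the edgeR fit, adjusted over all genes. Between deprived and complete medium 4 genes differed with every library and 2167 without libraries 25 and 32, where the differences in log2 fold change were -1.83 for INHBE, -0.95 for STC2, -1.004 for NPR2, -0.78 for SESN2 and -1.02 for TRIB3. The first 4 of these genes also differed with every library, and TRIB3 did not (adjusted p = 0.125).

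Between cis SSP and cis cells without serine and glycine 393 genes differed with every library and 4589 without library 32, with differences of 1.92 for CDKN1A, 2.13 for LIF and -1.82 for INHBE. Between cis SSP and wt cells 4772 genes differed with every library and 7236 without library 32, with differences of 2.76 for KIF20A, -3.75 for HMOX1 and -2.90 for JUN. These 6 differences were also called with every library. Without carboplatin JUN was at a mean of 0.533 CPM in wt -SG cells and of 7.17 CPM in cis SSP -SG cells.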

How the results depend on the processing

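The count of 199 called genes moved with most other choices. It was 576 with DESeq2, 2860 with one fit over all conditions, 803 with one fit over the cis SSP libraries, 752 with the trend over transcript length removed and 103 when a change of 1 log2 unit was also required, and 0 to 5679 with 1 library left out, the highest without library 32. Without library 32 the count of 5679 became 3573 with DESeq2, 2627 with one fit over all conditions and 367 with that required change. The 4 genes that differed between media became 60 with DESeq2, 204 with one fit over all conditions, 48 with the length trend removed, 2167 without libraries 25 and 32, and 6 to 10 with library 25 or library 32 left out. The 393 genes that differed from cis cells became 792, 1361 and 915 under the first 3 of these choices, 4589 without library 32 and 3623 without libraries 23, 24 and 32, the last chosen after seeing the data. The 4772 that differed from wt cells became 7236 without library 32. The cause was not tested. Of 1093 alternative values of 73 named genes, 772 kept direction and side of the threshold, 224 lost the threshold, 93 gained it and 4 changed sign: ASPM to 0.05 without library 31 (lowest with 1 library left out, -0.51), TEK to -0.01 with the length trend removed, and KITLG to 0.07 and 0.03 without library 31 or 33 (lowest, -0.20). No paired analysis was possible because the groups share no replicate numbers in the labels.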

Other observations

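Lists outside the comparisons above held few calls with the 6 libraries. PKM, a glycolytic kinase, was at 1418, 1650 and 1385 CPM without carboplatin and at 1907, 1932 and 1973 CPM with it, and ALDOC, an aldolase, fell by 0.75 on the log2 scale (adjusted p = 0.0387 by edgeR) and by 0.65 without library 32, the 1 call among 21 glycolysis genes. XBP1, a transcription factor of the unfolded protein response, was at 168, 268 and 183 CPM against 113, 118 and 116 CPM, with a log2 fold change of -0.82 (adjusted p = 0.11 by edgeR) and of -0.58 (adjusted p = 3.45e-10) without library 32. VIM, an intermediate filament, was at 2747, 4053 and 2626 CPM against 1926, 1945 and 1987 CPM, and COL3A1, a fibrillar collagen, at 2993, 2449 and 3031 CPM against 2054, 2098 and 2142 CPM. Both were called lower without library 32 and not with it. Of 24 collagen genes none was called with the 6 libraries, and 11 were called higher and 5 lower without library 32 (all genes tested, 21.1% and 19.9%), with a median log2 fold change of 0.29. ACTA2, smooth muscle actin, was at 1.01, 0.883 and 1.22 CPM and rose to 2.55, 2.45 and 2.63 CPM, the 1 call among 11 genes of SRF and YAP.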
